A study of Mus musculus with 14 samples.

Results

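FDCPmix is a mouse haematopoietic progenitor cell line, labelled as bone marrow tissue, that divides in interleukin-3 and keeps the capacity to form several blood lineages. The comparison described here is between 2 fractions of its Kit+Gr1- cells, sorted for high or low surface Sca1: the 3 arrays titled Sca-1hi and the 3 titled Sca-1lo, that is 6 of the 14 arrays of the study, with all 30735 genes that passed a filter on dim probes. All cultures were kept in maintenance medium with horse serum and WEHI-conditioned medium as the source of interleukin-3, the same for every group, and 150 ng of total RNA per sample was labelled with Cy3. The 3 Kit-Gr1- and 3 Gr1+ arrays of the same cultures serve for the estimate of spread and as reference points, and 2 unfractionated arrays were used only in alternatives. The replicates are biological by the study's design, but all come from 1 immortal line, so the spread between them is that between cultures and sorts, not between animals.

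Sca1 is a small membrane-anchored protein of the Ly6 family, encoded by Ly6a, and Kit is the receptor for stem cell factor. In mouse bone marrow, Sca1 on Kit+ cells marks the compartment that holds stem and multipotent cells, whereas committed erythroid, megakaryocytic and myeloid progenitors carry little of it. Erythroid and megakaryocytic commitment runs through the transcription factor Gata1, which binds GATA motifs near genes of red cells and platelets, with Klf1 as the main erythroid partner factor.

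A value below is a log2 level, the log2 processed signal of a gene's probe minus the 75th percentile of the same array, or a difference of such levels, Sca1hi minus Sca1lo. A gene was called when limma's Benjamini-Hochberg adjusted p, over all genes tested, was under 0.05 and the difference at least 2-fold. With the 12 sorted arrays in the fit and no block, limma called 0 of 30735 genes (percent called 0), with a smallest adjusted p of 0.144 and 256 genes at an unadjusted p under 0.05, 80 higher and 176 lower in Sca1hi. Same-numbered Sca1hi and Sca1lo arrays deviated together from their group means, so the replicate numbers were taken to pair the arrays. The compression of replicate 3 moves with the number, and the slide does so in part. The replicate 1 and replicate 3 arrays of the 2 fractions each shared a slide. The replicate 2 arrays did not, and their deviations correlated at 0.72. The part of slide and compression in the pairing was not tested. With the replicate number as a block, limma called 2 genes (percent called 0.00651), Ly6a higher and Aqp1 lower in Sca1hi. That block also pairs the Kit-Gr1- and Gr1+ arrays by number, which was checked only between Sca1hi and Sca1lo. Kit-Gr1- replicate 3 was not compressed, with a log2 range of spike-in RNA signals of 14.8 against 8.81 and 10.5 on replicate 3 of Sca1hi and Sca1lo. With the slide as a block it called 3 (percent called 0.00976), the same 2 and Kel. Without the replicate 3 arrays of Sca1hi, Sca1lo and Gr1+, it called 0 of 29508 genes (percent called 0, with 413 at an unadjusted p under 0.05), 1 with the replicate block (Ly6a) and 3 with the slide block (Ly6a, Aqp1 and the transcript BC031139).

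The replicate 3 arrays of both fractions stood apart in their signals. Spike-in RNAs of known amount spanned a log2 range of 14.4 and 14.7 on Sca1hi replicates 1 and 2 but 8.81 on replicate 3, and 14.3, 14.5 and 10.5 on the Sca1lo replicates. Dim probes were raised on the compressed arrays: 5824 genes lay at least 2 log2 units above both other replicates on Sca1hi replicate 3, and 1873 on Sca1lo replicate 3, against 5 to 26 on the other 4 arrays. The difference of replicate 3 therefore moved with signal. Its median was 1.51 in the dimmest quartile of genes and -0.55 in the brightest, while that of replicate 1 ran only from 0.07 to -0.07 and that of replicate 2 from -0.44 to 0.11. The replicate 1 and replicate 3 arrays of both fractions each shared a slide, so those differences are within-slide values. Replicate 2 of Sca1hi and of Sca1lo lay on different slides.

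**Figure D1:**
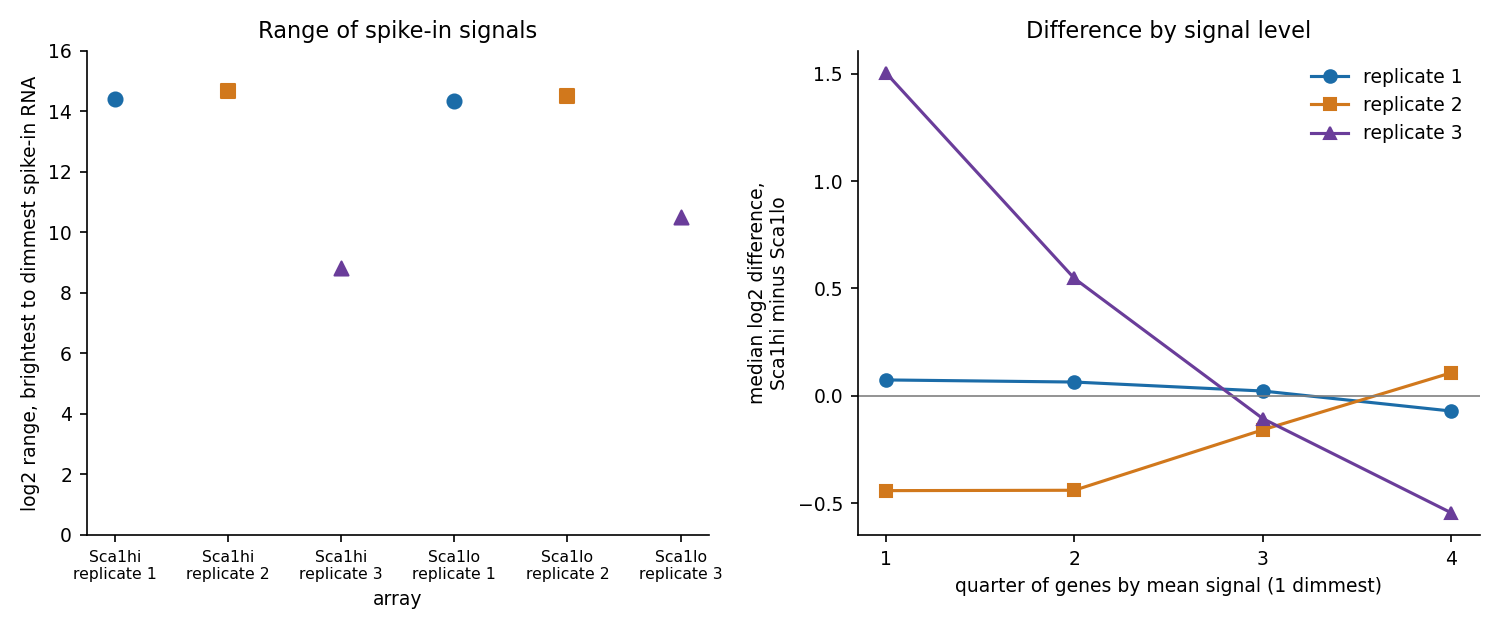
Left, the log2 range of spike-in RNA signals on each Sca1hi and Sca1lo array (1 point per array); right, the median log2 difference, Sca1hi minus Sca1lo, at each replicate number in 4 equal parts of the 30735 genes by mean signal. The replicate 3 arrays span 8.81 and 10.5 log2 units against 14.3 to 14.7 on the others, and their difference falls from 1.51 in the dimmest genes to -0.55 in the brightest.

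Ly6a, which encodes the antigen used for the sort, was the gene of smallest p-value and checks the labels. Its log2 levels were -0.52, 0.16 and -0.42 on Sca1hi replicates 1, 2 and 3 and -2.96, -2.38 and -2.40 on the Sca1lo replicates. The lowest Sca1hi array thus lay above the highest Sca1lo array. The difference was 2.32 ± 0.31 (SE), 4.98-fold, with 2.44, 2.54 and 1.97 at the 3 replicate numbers. Ly6a did not pass without a block (limma adjusted p = 0.144) and rose with the replicate block (2.32 ± 0.22, adjusted p = 0.00451). The call was lost when the blocked fit left out replicate 1 (adjusted p = 0.249) or replicate 2 (0.234), scaled arrays by their medians (0.651) or used quantile normalization (0.0699), and kept without replicate 3 (0.00378). In sorted bulk samples such as these, fewer cells that express a gene and less RNA per cell cannot be told apart. Sca1lo cells (-2.58 ± 0.33, SD, n = 3) stood with Kit-Gr1- cells (-2.53 ± 0.60, SD, n = 3), and both lay below Sca1hi cells (-0.26 ± 0.37, SD, n = 3). Gr1+ cells had the highest level of Ly6a, 2.73 ± 0.27 (SD, n = 3).

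Kit, the antigen shared by both fractions, did not pass, at 0.02 ± 0.25 (limma adjusted p = 1.00), with levels of 0.77, 0.56 and -0.18 in Sca1hi and 0.56, 0.35 and 0.18 in Sca1lo. Among 14 genes of the Ly6 family tested, Ly6a alone was called with the replicate block, and the family's median difference was -0.08 against -0.02 over all genes. Of the 14 genes 7 had a difference below 0 and 7 above. Ly6c1, part of the Gr1 antigen, measured -0.43 ± 0.82, Ly6i -0.32 ± 0.26 and Lypd6b 0.44 ± 0.34.

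**Figure D2:**
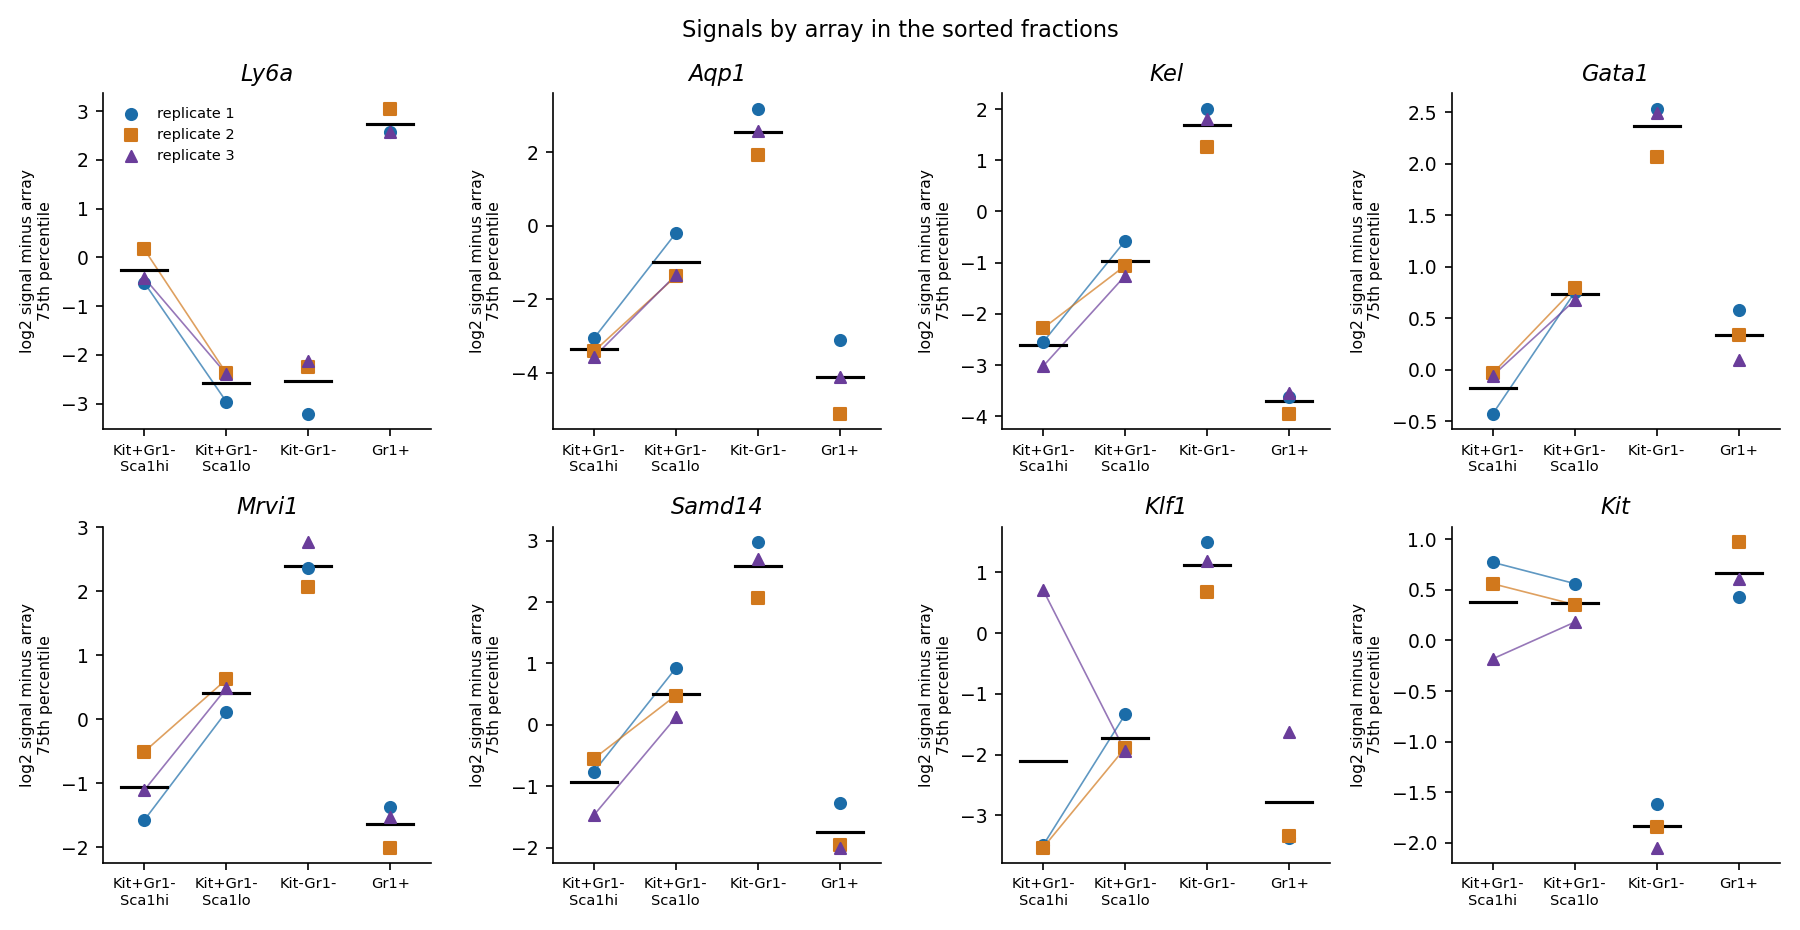
Log2 levels (log2 processed signal minus the array's 75th percentile) of 8 genes on each array of the 4 sorted fractions, with symbols for the replicate number, black bars for the mean of 3 arrays and lines joining same-numbered Sca1hi and Sca1lo arrays. Ly6a is higher and Aqp1, Kel, Gata1, Mrvi1 and Samd14 are lower in Sca1hi at every replicate number. That direction follows from the lack of overlap between their groups. Klf1 is at 0.71 on Sca1hi replicate 3 and near -3.5 on the other Sca1hi arrays.

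Genes with a symbol and without overlap of the groups were ranked by p-value. The first 5 lower in Sca1hi were Kel, Mrvi1, Aqp1, Gata1 and Samd14. Lack of overlap fixes the sign at every replicate number, and each of the 5 was lower there by at least 0.73. Aqp1, the water channel of the red cell membrane, had log2 levels of -3.07, -3.42 and -3.58 in Sca1hi and -0.20, -1.38 and -1.34 in Sca1lo. No Sca1hi array reached the lowest Sca1lo array. The difference was -2.38 ± 0.48 without a block (5.22-fold, limma adjusted p = 1.00), and Aqp1 fell with the replicate block (-2.38 ± 0.29, adjusted p = 0.0276) and with the slide block (-2.64 ± 0.23, adjusted p = 0.0157). Leaving out any 1 replicate number ended the blocked call of Aqp1 (adjusted p from 0.0794 to 0.999), as did array medians (0.213) and quantile normalization (0.486). Its level was 2.57 ± 0.64 (SD, n = 3) in Kit-Gr1- cells and -4.11 ± 1.01 (SD, n = 3) in Gr1+ cells, so Sca1lo lay between Sca1hi and Kit-Gr1-.

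Kel, which encodes the Kell blood group protein, had levels of -2.55, -2.28 and -3.02 in Sca1hi and -0.57, -1.06 and -1.25 in Sca1lo. The 2 groups did not overlap. Its difference was -1.66 ± 0.28 without a block (3.15-fold, limma adjusted p = 0.944) and -1.66 ± 0.26 with the replicate block (adjusted p = 0.255). It fell only with the slide block among these 3 fits (-1.83 ± 0.16, adjusted p = 0.0157). Within the shared slides the differences were -1.98 (replicate 1) and -1.77 (replicate 3), and -1.22 was measured across slides at replicate 2.

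Gata1 had levels of -0.43, -0.04 and -0.06 in Sca1hi and 0.75, 0.79 and 0.67 in Sca1lo, which are close within each group and apart between them. The difference of -0.91 ± 0.19, 1.88-fold, was below the 2-fold line and had a limma adjusted p of 1.00 without a block and 0.985 with the replicate block. The differences at the 3 replicate numbers were -1.18, -0.83 and -0.73. Gata1 measured 2.36 ± 0.26 (SD, n = 3) in Kit-Gr1- cells, and its level in Gr1+ cells was 0.34 ± 0.25 (SD, n = 3), above that of Sca1hi cells.

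Mrvi1, which encodes a substrate of cGMP-dependent kinase found in platelets and smooth muscle, had levels of -1.58, -0.51 and -1.11 in Sca1hi and 0.12, 0.62 and 0.48 in Sca1lo. The difference was -1.47 ± 0.29 (limma adjusted p = 1.00, and 0.715 with the replicate block). A second Mrvi1 probe gave only -0.20. Samd14, a gene known to be bound by GATA factors in blood progenitors, had levels of -0.77, -0.55 and -1.47 in Sca1hi and 0.92, 0.48 and 0.12 in Sca1lo. Its difference was -1.44 ± 0.32 (limma adjusted p = 1.00, and 0.339 with the replicate block). Both genes were picked for lack of overlap between the groups, and in both Sca1lo again lay between Sca1hi and Kit-Gr1- cells.

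Klf1 and Epor, which encode the erythroid partner factor and the erythropoietin receptor, gave different answers with and without replicate 3. Klf1 was at -3.49 and -3.53 on Sca1hi replicates 1 and 2 and at 0.71 on replicate 3, against -1.34, -1.89 and -1.95 in Sca1lo. Its difference was -0.38 ± 0.88 with all arrays and -1.90 without the compressed ones (limma adjusted p = 1.00 in both). Epor measured -1.73, -1.74 and -0.46 in Sca1hi and -0.52, -0.83 and -0.70 in Sca1lo, a difference of -0.63 ± 0.33 with all arrays and -1.06 without the compressed ones. Both genes are thus lower in Sca1hi at replicates 1 and 2 and higher at replicate 3. Dim signals were raised on the replicate 3 arrays of both fractions, and their part in this was not tested.

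The stretches of sequence that follow lie before the starts of 5 genes of red cells or platelets that were lower in Sca1hi, at all numbers or at replicates 1 and 2, and are shown for the GATA motif. They were picked from 8 genes described here whose starts were looked up, because they held a match, and the search over whole lists is given only as shares. The 250 bases before each RefSeq start (GRCm38.p6) were searched on both strands for AGATAA and TGATAA, which read TTATCT and TTATCA on the other strand, and the capitals mark the matches, with up to 30 bases on each side, written 5′ to 3′ on the strand of the gene.
Kel, chr6:41704326-41704411, minus strand: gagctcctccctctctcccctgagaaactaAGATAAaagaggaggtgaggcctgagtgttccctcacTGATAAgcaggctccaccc
Epor, chr9:21963595-21963660, minus strand: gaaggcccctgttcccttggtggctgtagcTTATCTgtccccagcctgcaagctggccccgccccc
Klf1, chr8:84901872-84901937, plus strand: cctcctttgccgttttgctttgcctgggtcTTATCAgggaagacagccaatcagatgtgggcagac
Mrvi1, chr7:110982508-110982573, minus strand: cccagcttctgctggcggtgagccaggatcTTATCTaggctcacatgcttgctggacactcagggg
Cpox, chr16:58670092-58670157, plus strand: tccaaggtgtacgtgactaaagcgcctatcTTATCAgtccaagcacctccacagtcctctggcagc
Kel held 2 matches, which begin 56 and 19 bases before its start, and Mrvi1 held its match before 1 of 2 listed starts. Aqp1, Gata1 and Pf4 held none in this window. The motif stood before 11 of 30 red cell genes and 7 of 19 erythroid regulators with a listed promoter, against 15.3% of the 12853 tested genes and 16.6% of all listed promoters. A match is a run of letters and not a measured binding site.

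Groups that do not overlap, with every Sca1hi array above or below every Sca1lo array, were found for 424 genes higher in Sca1hi (1.38% of genes tested) and 503 lower (1.64%). The same direction at all 3 replicate numbers was found for 2893 genes higher (9.41%) and 3682 lower (12%). These shares depended on the signal: in the brightest quartile of genes 2.07% were higher and 22.6% lower at every number, and in the dimmest 14.7% were higher and 1.98% lower.

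**Figure D3:**
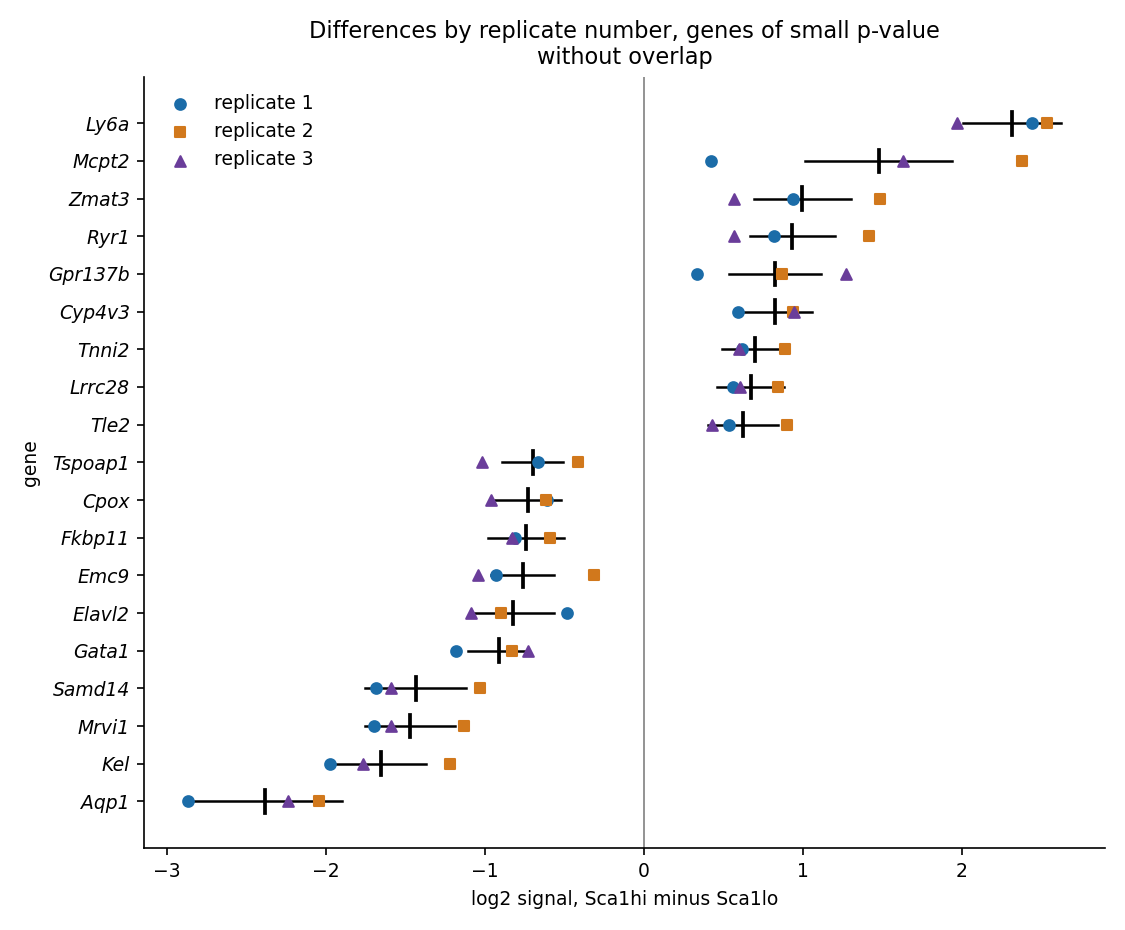
Log2 differences, Sca1hi minus Sca1lo, at each replicate number (symbols) for 9 genes higher and 10 lower in Sca1hi, from those with a symbol, no overlap and the smallest p-values, with the mean (black tick) and its standard error from limma (line). Ly6a lies at 2.32, Kel at -1.66 and Aqp1 at -2.38. The symbols of each gene lie on 1 side of zero because genes without overlap were chosen.

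Of the genes higher in Sca1hi, none but Ly6a was called in the fits on all 12 arrays with no block, a replicate block or a slide block. Several uncalled genes with a symbol and without overlap had the next smallest p-values. Zmat3, which encodes a zinc finger protein, measured 1.00 ± 0.31. Ryr1, a calcium release channel of intracellular stores, measured 0.93 ± 0.27. Mcpt2, a mast cell protease gene, had levels of -2.68, -0.68 and -1.90 in Sca1hi and -3.10, -3.06 and -3.53 in Sca1lo, with differences from 0.42 to 2.38. Cyp4v3 (0.82 ± 0.24), Gpr137b (0.82 ± 0.29), Tnni2 (0.70 ± 0.21), Lrrc28 (0.67 ± 0.21) and Tle2 (0.62 ± 0.22) were the others, and 0.687 was the lowest limma adjusted p of these genes in the unblocked fit and with either block.

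The remaining lower genes of smallest p-value did not pass either. Cpox, an enzyme of haem synthesis, measured -0.73 ± 0.21, with levels of -0.15, 0.02 and -0.60 in Sca1hi and 0.45, 0.63 and 0.36 in Sca1lo. Elavl2, an RNA-binding protein gene, measured -0.82 ± 0.26, and Emc9, a subunit of the membrane protein insertion complex, -0.76 ± 0.20. Fkbp11, a prolyl isomerase of the secretory pathway, measured -0.74 ± 0.24 and Tspoap1 -0.70 ± 0.19. Lack of overlap between the groups was a condition for naming these genes.

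Without the compressed arrays, the ranking by p-value also held Aldh2, which oxidises aldehydes, at 1.42 ± 0.41, Trf, the transferrin gene, at 0.90 ± 0.27, and Trp53inp1 at 0.90. Sgsh, a lysosomal sulfatase gene, measured 1.02 ± 0.24 there, Mettl7a1 0.89 ± 0.26 and St3gal2, a sialyltransferase gene, 0.81 ± 0.22. Vwa5b2 was lower at -0.91 ± 0.22. None of these passed (limma adjusted p = 1.00). With all arrays Aldh2 measured 6.60, 4.96 and 3.57 in Sca1hi and 4.33, 4.39 and 4.13 in Sca1lo, so the compressed Sca1hi array was the lowest of the 6.

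A fit on the 6 Sca1hi and Sca1lo arrays alone with the replicate block called 29 genes (percent called 0.101), 13 higher and 16 lower, of which 18 had a symbol. It has 2 residual degrees of freedom, and limma gave each gene the spread of the trend over all genes in place of its own, so a gene could be called on 1 replicate number. Cysltr2, a leukotriene receptor gene, was called higher on differences of 0.12, -0.12 and 4.82, and Lrrfip1 on 0.13, 0.28 and 3.17. Ly6a, Aqp1, Kel, Mrvi1 and Samd14 were among the 29, as was Mcpt2. Lsp1, an actin-binding protein gene of leukocytes, was called higher (1.36 ± 0.26, limma adjusted p = 0.000292) on 1.38, 1.72 and 0.98. Pf4, which encodes platelet factor 4, was called lower (-1.16 ± 0.25) on -1.33, -0.79 and -1.35, and Anxa3, an annexin gene, lower on -1.40, -2.17 and -0.76. Weighting the arrays by their own scatter in the 12-array fit called 20 genes (percent called 0.0651), 9 higher and 11 lower, with Gata1 among the lower ones (-1.16 ± 0.13, limma adjusted p = 0.00333). In that fit Sca1hi replicate 1 carried 93.8% of the weight of its group, so these calls set nearly 1 Sca1hi array against Sca1lo.

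Red cell genes were described as a list of 48, of which 43 were tested. None was called without a block, and with the replicate block Aqp1 was the only one. Their median difference was -0.18, against -0.02 over all genes, and -0.11, -0.38 and -0.20 at the 3 replicate numbers. At every number 15 of the 43 were lower in Sca1hi and 3 higher (34.9% and 6.98%, against 12% and 9.41% of all genes). Without overlap 5 were lower and 1 higher (11.6% and 2.33%, against 1.64% and 1.38% of all genes). Of those whose groups did not overlap, Aqp1, Kel, Cpox, Icam4 (-0.74 ± 0.28), an adhesion protein of erythroblasts, and Art4 (-1.07 ± 0.46), the Dombrock blood group gene, were lower and the urea transporter gene Slc14a1 (0.75 ± 0.51) was higher. The transferrin receptor gene Tfrc, which supplies iron for haem, measured -0.78 ± 0.30. The mean level of the list was -0.69, -0.88 and -0.34 on the Sca1hi arrays, -0.33, -0.47 and -0.30 on the Sca1lo arrays and 0.32 to 0.71 on the Kit-Gr1- arrays, so Sca1hi and Sca1lo overlapped and Kit-Gr1- stood above both.

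Of 21 erythroid regulators tested, Gata1 and Bcl11a were lower at every number and Ldb1, a bridging cofactor of Gata1, higher. These are 9.52% and 4.76% of the list, against 12% and 9.41% of all genes. The list's median was -0.11, with -0.12, 0.19 and -0.15 at the 3 numbers and 0.02 without the compressed arrays. Tal1, a partner of Gata1, measured -0.38 ± 0.32, Zfpm1, its cofactor, -0.36 ± 0.32, and Gata2, which acts before Gata1, -0.14 ± 0.31. None of these was called under any of the 3 fits on 12 arrays.

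Of 22 megakaryocyte and platelet genes tested, 7 were lower and 1 higher in Sca1hi at every number (31.8% and 4.55%). Over all genes these shares were 12% and 9.41%. The list's median was -0.22, with -0.04, -0.10 and -0.59 at the 3 numbers and -0.07 without the compressed arrays. Of the 22 genes, 11 were in the brightest quartile. Pf4 had levels of 3.04, 3.25 and 1.81 in Sca1hi and 4.37, 4.04 and 3.16 in Sca1lo, which overlap by 1 array in each group. Gp9 (-0.62 ± 0.32) and Gp1ba (-0.51 ± 0.24), subunits of the platelet receptor for von Willebrand factor, were also lower at every number. None was called with no block, the replicate block or the slide block.

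Stem and progenitor genes had a median difference of 0.15 over the 41 tested, with 0.11, 0.07 and 0.17 at the 3 numbers, and none was called. The median was 0.08 without the compressed arrays, 0.03 with the slide block, 0.01 with array medians and from -0.0018 to 0.15 with 1 array left out. At every number 4 were higher and 1 lower (9.76% and 2.44%, against 9.41% and 12% of all genes). Esam, an adhesion protein gene of stem cells and endothelium, measured 0.91 ± 0.85, nearly all from replicate 3 (0.25, 0.21 and 2.26), and Slamf1, the lower one, -0.27 ± 0.47. Runx1 (-0.02 ± 0.22) and Myb (-0.21 ± 0.26), regulators of early blood progenitors, did not pass.

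Among granulocyte genes, Csf3r, the receptor for granulocyte colony-stimulating factor, had levels of -2.96, -2.11 and -2.51 in Sca1hi and -4.26, -3.28 and -3.30 in Sca1lo, without overlap, and 0.14 ± 0.79 (SD, n = 3) in Gr1+ cells. Its difference was 1.09 ± 0.47 (limma adjusted p = 1.00). The mean level of the 27 secondary granule and mature neutrophil genes tested was -2.88, -1.64 and -0.80 in Sca1hi and -2.94, -1.67 and -1.42 in Sca1lo, against 1.59 to 3.21 in Gr1+ cells. Those levels followed the replicate number in both fractions, and their part in the difference of Csf3r was not tested. Mpo, the myeloperoxidase gene, measured -0.77 ± 0.69 and was lower at every number. Of the 18 primary granule genes 8 were lower and 3 higher at every number (44.4% and 16.7%). The brightest quartile held 15 of the 18, and the list's medians were -0.11, -0.14 and -0.10 at the 3 numbers. Of 30 monocyte and macrophage genes 5 were lower and 3 higher (16.7% and 10%). These shares were 12% and 9.41% over all genes and 22.6% and 2.07% in the brightest quartile. F10, the coagulation factor X gene, measured -1.38 ± 0.58, with overlap of the groups. Spi1 (0.23 ± 0.25) and Cebpa (-0.25 ± 0.33), the leading myeloid factors, Gfi1 (-0.39 ± 0.88) and Fli1 (-0.35 ± 0.26) did not pass.

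Among other lineages, Mcpt2 and Mcpt4 (0.49 ± 0.23), both mast cell protease genes, were higher without overlap. They make up 6.90% of the mast cell and basophil list, against 1.38% of all genes. Of the 29 genes tested in that list 18 had a difference below 0 and 11 above, with a median of -0.16. At every number 4 were higher and 5 lower (13.8% and 17.2%). Over all genes these shares were 9.41% and 12%. Cd74, the invariant chain of MHC class II, had levels of -0.73, -0.14 and -0.15 in Sca1hi and -1.13, -1.18 and -0.90 in Sca1lo, a difference of 0.73 ± 0.30, and the 6 class II genes tested had a median of 0.30. Cd7 (0.66 ± 0.25), a marker of lymphoid progenitors, was higher and the interleukin-21 receptor gene Il21r (-0.74 ± 0.28) lower, both without overlap. Ptcra, of the same lymphoid list as Cd7, was lower without overlap (-0.62 ± 0.29). The 31 lymphoid genes tested had a median of -0.0095, with 1 higher and 2 lower at every number. The 9 eosinophil genes tested had a median of 0.27, with 0.10, -0.21 and 0.98 at the 3 numbers and -0.09 without the compressed arrays. The 14 genes of stroma, endothelium and epithelium had a median of -0.15, with 1 higher and 3 lower at every number (7.14% and 21.4%).

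**Figure D4:**
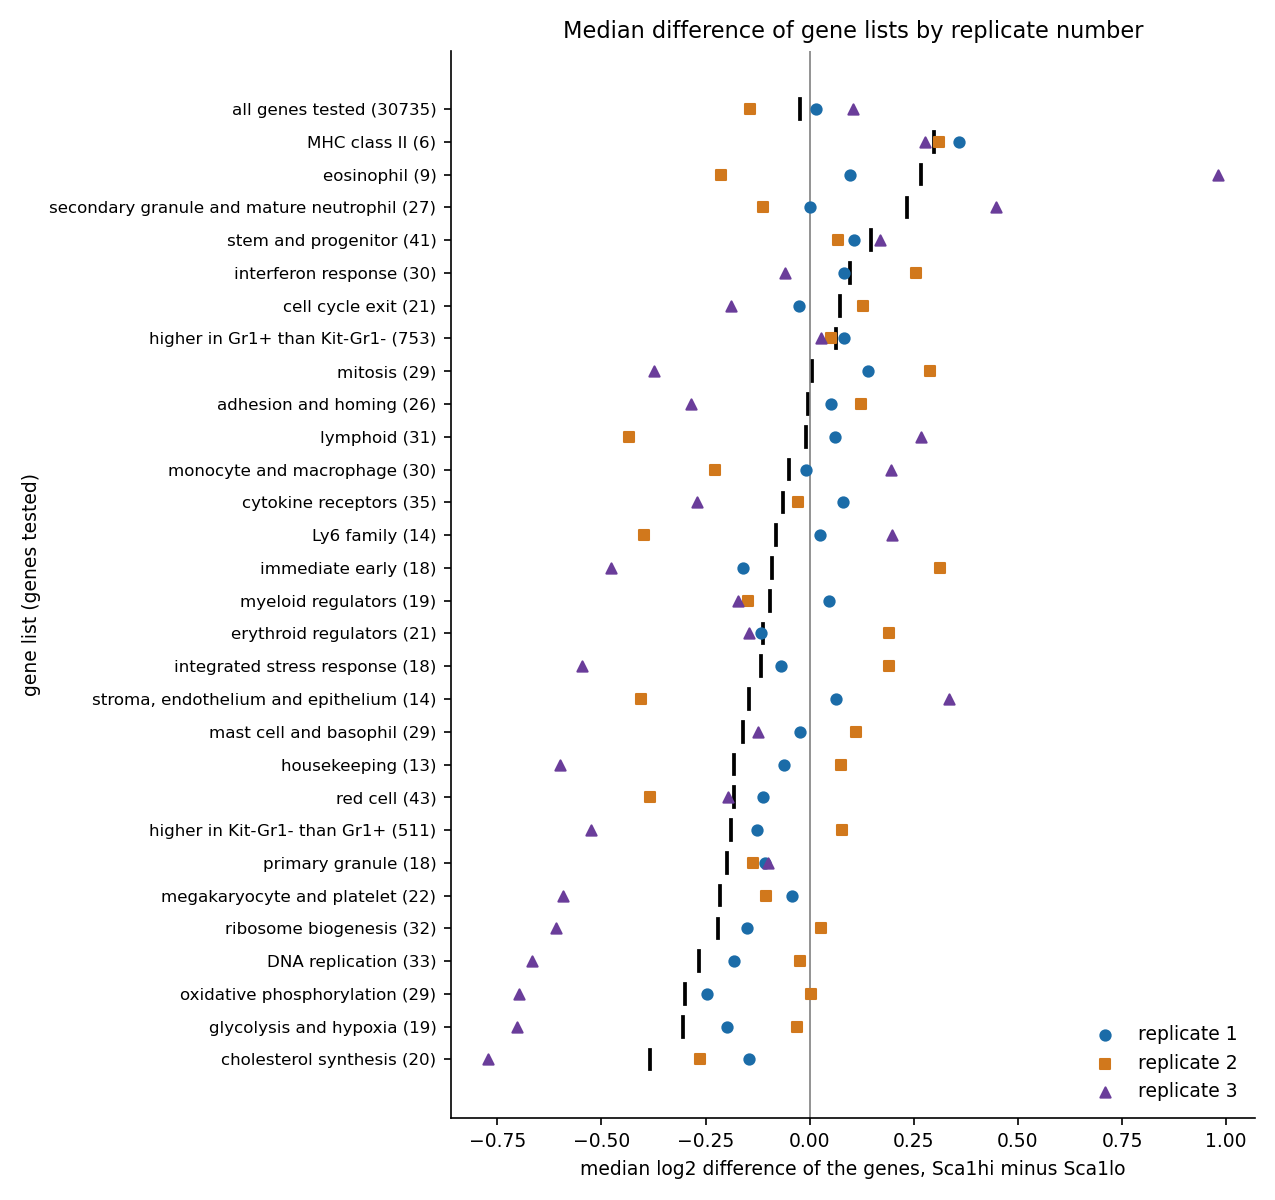
Median log2 difference, Sca1hi minus Sca1lo, of the genes in each list at each replicate number (symbols) and in the mean of 3 numbers as fitted by limma (black tick), with the number of genes tested in brackets. Cholesterol synthesis lies lowest at -0.38, MHC class II highest at 0.30, and all genes at -0.02. Replicate 3 lies farthest left in lists of bright genes such as oxidative phosphorylation and DNA replication, but not in the primary granule list.

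Genes of cholesterol synthesis had the lowest median of the 28 lists and the largest share of members lower in Sca1hi at every number. Of 20 tested, 15 were lower (75%) and 0 higher at every replicate number, and none was called. The share lower at every number was 12% of all genes and 22.6% of the brightest quartile. The list's median difference was -0.38, with -0.15, -0.26 and -0.77 at the 3 numbers. Hmgcs1, an early enzyme of the pathway, measured -0.58 ± 0.31, Lss, which closes the sterol rings, -0.53 ± 0.24, and Dhcr7, a late enzyme, -0.58 ± 0.22. Of the 20 genes 18 were in the brightest quartile, whose own medians were -0.07, 0.11 and -0.55 at the 3 numbers. The median without the compressed arrays was -0.23. Other lists of bright genes moved at replicate 3 above all: oxidative phosphorylation (29 genes, -0.25, 0.00 and -0.70), DNA replication (33 genes, -0.18, -0.02 and -0.67) and ribosome biogenesis (32 genes, -0.15, 0.03 and -0.61), beside 13 housekeeping genes at -0.06, 0.07 and -0.60.

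The genes that distinguish Kit-Gr1- from Gr1+ cells were followed in the Sca1hi and Sca1lo arrays. Those arrays are not part of the contrast, but they enter its spread estimate and the filter on dim probes. The calls can therefore favour genes of small spread within Sca1hi and Sca1lo. Limma called 511 genes higher in Kit-Gr1- (1.66% of those tested) and 753 higher in Gr1+ (2.45%). Of the 511 genes, 159 were lower and 26 higher in Sca1hi at every replicate number (31.1% and 5.09%). The shares of all genes were 12% and 9.41%. Without overlap, 43 were lower and 9 higher (8.41% and 1.76%, against 1.64% and 1.38% of all genes). The 511 genes had a median difference of -0.19, but -0.13, 0.08 and -0.53 at the 3 numbers and -0.02 without the compressed arrays. Of the 511, 298 were in the brightest quartile of genes. Of the 752 genes higher in Gr1+ that remain without Ly6a, 171 were higher and 89 lower in Sca1hi at every number (22.7% and 11.8%). Their median was 0.06, with 0.08, 0.05 and 0.02 at the 3 numbers. Over the 1264 genes, the difference at each number had a Pearson correlation with the Kit-Gr1- minus Gr1+ difference of -0.30, 0.05 and -0.54 for replicates 1, 2 and 3. Over all 30735 genes the same correlations were -0.08, 0.13 and -0.58, so the value at replicate 3 is not particular to the 1264. These are correlations across genes, which are not independent replicates, and Gr1+ replicate 3 was itself compressed.

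**Figure D5:**
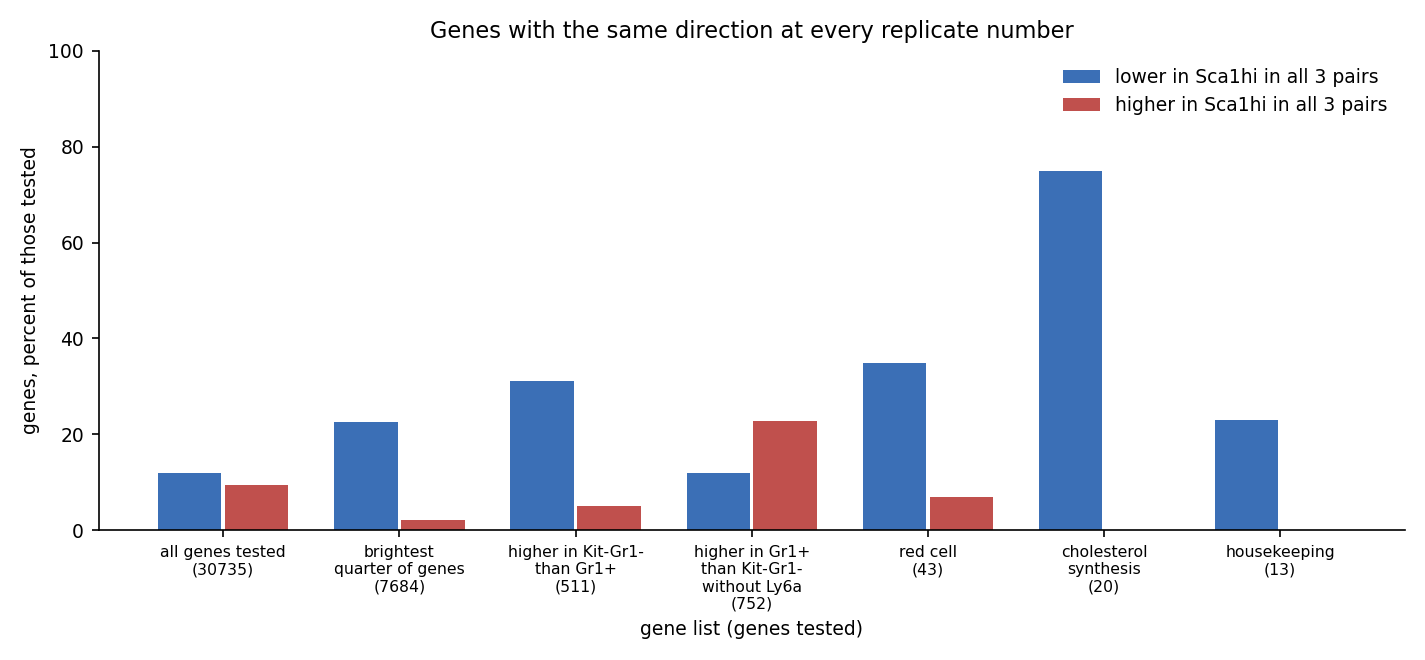
Percent of genes in each list that were lower (blue) or higher (red) in Sca1hi at all 3 replicate numbers, with the number of genes tested in brackets. Cholesterol synthesis has 15 of 20 genes lower, against 12% of all genes and 22.6% of the brightest quartile, and 31.1% of the genes higher in Kit-Gr1- than Gr1+ are lower in Sca1hi.

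Over the 12 sorted arrays, the genes whose levels were most like those of Ly6a by Pearson correlation were Cyp4v3 (0.977), Baz2b (0.966), Sh3tc1 (0.965), Unc93b1 (0.960) and Pglyrp1 (0.955). All 5 had their highest mean in Gr1+ cells and a higher mean in Sca1hi than in Sca1lo cells. Ly6a has the same order, so the choice of these genes favours it. Pglyrp1, a peptidoglycan recognition protein gene of neutrophil granules, had mean levels of 2.02 in Sca1hi, 1.34 in Sca1lo, 0.46 in Kit-Gr1- and 4.51 in Gr1+ cells. Unc93b1, which carries Toll-like receptors to endosomes, had means of 0.78, 0.24, 0.03 and 2.70 in the same order. The 12 arrays fall into 4 groups, so these coefficients rest largely on the differences between groups.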

How the data were processed

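Members, gene lists and the naming rule were chosen with earlier results of these data known. Per the file headers, the authors read the scans with Agilent Feature Extraction 10.1.1.1, and what they deposited is a processed intensity per spot, background-subtracted and detrended. The authors' deposited series matrix holds log2 values that equalled the log2 of that signal within 5e-09. The array design names build mm8. Symbols for 23374 of 41174 probes came from RefSeq tables of GRCm38.p6, so positions given are those of GRCm38.p6 alone.

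Control spots and outlier-flagged spots were left out, spots of a probe averaged, and each array's 75th percentile subtracted on the log2 scale. A probe was kept when well above background on at least 3 of 12 sorted arrays (2 of 9 without the compressed ones) and measured on all. The brightest kept probe stood for its gene. Fits used lmFit and eBayes with a trend in limma 3.58.1 (R 4.3.3, two-sided), over 4 groups with no covariate, which left 8 residual degrees of freedom. The fit was tested on simulated data. Blocks, scalings, filters and left-out arrays were alternatives. The numbers were taken to pair the arrays because deviations of same-numbered Sca1hi and Sca1lo arrays correlated at 0.68, 0.72 and 0.86, though Sca1hi replicate 1 also correlated with Sca1lo replicate 2 (0.45) and Sca1hi replicate 2 with Sca1lo replicate 1 (0.36). The number of arrays limits the precision.

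Genes named were Ly6a, Kit, the markers Aqp1, Kel and Gata1 and fixed regulators, up to 10 genes in each direction of smallest p-value without overlap (with all arrays and without the compressed ones), up to 4 members of a list of smallest p-value, and the 5 genes most like Ly6a. A few genes that the rule names are not reported here. Lsp1, Anxa3, Cysltr2, Lrrfip1 and list members outside that rule were named after their values were seen. Of 28 lists, those not mentioned in the results showed no called gene in the 12-array fits with no block, a replicate block or a slide block.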

Additional observations from a re-analysis of the deposited data

How the results depend on the processing

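The count of genes called without a block was 0 under every scaling, background, filter and probe rule tried and with each array left out in turn, and rose to 2 with the replicate block, 3 with the slide block and 20 with array weights. Without the compressed arrays the count was 0, but 1 with the replicate block, 3 with the slide block and 0 to 1 with a further array left out. Of the blocked fit's 2 calls, 0 remained with array medians, quantile normalization, the unblocked fit or all 14 arrays, 1 without the compressed arrays and 0 to 1 with a replicate number left out, while the 6 arrays alone gave 29. Array medians lowered the count between Kit-Gr1- and Gr1+ from 1264 to 551. Array weights were fitted gene by gene because the default did not converge. Normexp used the median signals. Both choices were made after seeing the data.

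The directions of Ly6a, Aqp1, Kel and Gata1 were kept in every fit and alternative run, with and without the compressed arrays, with Ly6a from 1.83 to 2.83 and Aqp1 from -3.10 to -1.84. Array medians moved the median of all genes from -0.02 to -0.16. Uncalled differences near 0 changed sign. Kit was -0.12 with array medians, -0.040 with quantile normalization, -0.028 with normexp and -0.18 to 0.30 with 1 array left out. Klf1 was 0.016 with quantile normalization, 0.25 with normexp and -1.78 to 0.33. Gata2 was 0.062 with quantile normalization, 0.027 with normexp, 0.048 with unscaled values, 0.085 without the compressed arrays or without replicate 3 of both fractions, 0.071 with quantile normalization without the compressed arrays, and -0.46 to 0.035. Spi1 was -0.13 with quantile normalization and -0.0045 with normexp. Cebpa was 0.010 with the mean of its probes. Gfi1 was -1.11 to 0.31 and Fli1 -0.57 to 0.023 with 1 array left out. Runx1 was 0.016 with quantile normalization, 0.17 with unscaled values, 0.032 with array weights, 0.18 without the compressed arrays or replicate 3, 0.14 with quantile normalization there, and -0.24 to 0.24. Myb was 0.0062 with quantile normalization, 0.024 with normexp, 0.0042 without the compressed arrays or replicate 3, 0.0022 with quantile normalization there, and -0.48 to 0.13. The causes were not tested.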

Other observations

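Of 29 mitosis genes tested, 5 were higher in Sca1hi at every replicate number and 1 lower, and none was called. These are 17.2% and 3.45% of the list, against 9.41% and 12% of all genes. In the brightest quartile, which held 25 of the 29, the shares were 2.07% and 22.6%. Nusap1, a spindle protein gene, measured 0.48 ± 0.24, with 0.52, 0.57 and 0.35 at the 3 numbers, and Kif11, a spindle motor gene, 0.28 ± 0.26. Both were without overlap of the groups and make up 6.90% of the list, against 1.38% of all genes and 0.43% of the brightest quartile. The list's median was 0.14 and 0.29 at replicates 1 and 2 and -0.37 at replicate 3. Of 30 interferon response genes 5 were higher (16.7%) and 0 lower at every number, with a median of 0.10. Gbp3, a guanylate-binding protein gene, did not overlap (0.42 ± 0.32). Among 18 genes of the integrated stress response, Slc7a5 (-0.51 ± 0.24), an amino acid transporter gene, and Shmt2 (-0.46 ± 0.25) and Mthfd2 (-0.34 ± 0.28), both of mitochondrial folate metabolism, were lower without overlap. They are 16.7% of the list, against 1.64% of all genes and 2.41% of the brightest quartile, which held 16 of the 18. The list's median was -0.07, 0.19 and -0.55 at the 3 numbers and 0.08 without the compressed arrays. Among 26 adhesion and homing genes 4 were higher and 4 lower at every number (15.4% each). Cd44, the hyaluronan receptor gene, was at -0.57, -0.31 and -0.80. These lists and members were singled out after their values were seen.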
